A study of Homo sapiens with 5 samples.

Results

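The mRNAs described here encode the helpers of protein folding: J-domain co-chaperones, the CCT chaperonin, prefoldin, prolyl isomerases, nucleotide exchange factors of HSP70, co-chaperones of HSP90 and tubulin folding cofactors. They were taken by gene name, with FKBP4 left out, and 54 of the 6309 genes in the authors' deposited table matched. These were 21 J-domain proteins, 8 CCT subunits, 4 prefoldin subunits, 11 isomerases, 5 nucleotide exchange factors, 3 HSP90 co-chaperones and 2 tubulin cofactors. The current RefSeq annotation holds 99 protein-coding genes with such names, and the others, among them PFDN4, PFDN6, BAG3, BAG6, TBCA and FKBP1A, were not analysed here.

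HL-60, an established human promyelocytic leukaemia line of wild-type genotype, was treated with decitabine, a nucleoside analogue that traps DNA methyltransferases, or with its solvent DMSO. Per the labels, the drug was given 3 times, at 0 hours and again after 24 and then 48 hours, to 100 nM each time, and lysates were taken at 72 hours. Total RNA was sequenced in 2 libraries for decitabine and 2 for DMSO, and ribosome-protected fragments of the barcoded samples in 1 pooled library. The comparison asks which mRNAs carried more or fewer ribosomes per mRNA (translation efficiency) with drug than with DMSO. The authors' deposited table gives 1 coefficient for each gene, decitabine over DMSO, with its p-value and adjusted p-value, and no value per library. A positive coefficient is higher translation efficiency with decitabine. It compares a ratio whose parts are not given, so a change in protected fragments and one in total RNA cannot be told apart. Rose and fell below refer to this ratio. The coefficient was read as a natural log, whose base the table does not state, so each fold below holds on that reading. The error given as ± is the standard error implied by the coefficient and its p-value, and it holds no source of error that the authors' model left out. The depth of the libraries is unknown. In lysates of whole cultures a change in some cells and a smaller one in every cell cannot be told apart. All 12 markers of the promyelocytic line that were looked up were among the genes in the table, against 1 of 15 markers of other lineages, PECAM1, which myeloid cells also express.

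These proteins work as a relay. J-domain proteins bind unfolded chains, bring them to HSP70 and trigger its ATP hydrolysis, and nucleotide exchange factors then release the chain. HSP90 takes over selected clients such as kinases and steroid receptors, guided by co-chaperones. Prefoldin, a jellyfish-shaped hexamer, catches actin and tubulin as they leave the ribosome and hands them to CCT, a chamber of stacked rings that folds them, and the tubulin cofactors assemble the tubulin dimer afterwards. Prolyl isomerases of the FKBP and cyclophilin families turn the peptide bonds before proline.

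Some mRNAs of the protein synthesis machinery begin with a C followed by a run of pyrimidines, the terminal oligopyrimidine (TOP) tract, through which the growth-sensing kinase mTOR and the RNA-binding protein LARP1 control their translation. Since translation is what was measured, the bases at the annotated transcript start of the members are shown first. Each line gives 30 bases on the transcript's strand, 10 before the first transcribed base and 20 from it onwards, from RefSeq (GRCh38.p14). Capitals mark the unbroken run of C and T where the first transcribed base is a C. PFDN5 is shown because it was the member that passed the test, and CCT4, DNAJC7 and DNAJC16 because they are the other members with such a run of at least 5 bases. CCT8, PFDN1 and PTGES3 are partners with a shorter run or none at the first base. EEF1A1, EEF2 and RPS3 are protein synthesis mRNAs with the run that were also lower with decitabine. RPL15, another protein synthesis mRNA that was lower (-0.37), has no run at its 3 annotated starts and is not shown.
PFDN5 (chr12:53295532-53295561, plus strand): gagagacttcCTCTTCgttaagtcggcctt
CCT4 (chr2:61888637-61888666, minus strand): ggaaggccccCTTCTCCgcctccgcctcct
DNAJC7 (chr17:42017143-42017172, minus strand): gggggtcggcCTTCCTCTCCCgcttccgcc
DNAJC16 (chr1:15526838-15526867, plus strand): ttgtcccctcCTCTTTCCCCTCCCCaggcc
CCT8 (chr21:29073629-29073658, minus strand): tgtgcgtgctCCTCgcttcctccgcggtct
PFDN1 (chr5:140303082-140303111, minus strand): tccaactcccactgcgcaggcgcttacagt
PTGES3 (chr12:56688265-56688294, minus strand): gccgcccggcCTCaccacccctcgtttgca
EEF1A1 (chr6:73521013-73521042, minus strand): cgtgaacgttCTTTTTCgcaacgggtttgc
EEF2 (chr19:3985444-3985473, minus strand): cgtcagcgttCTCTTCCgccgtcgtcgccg
RPS3 (chr11:75399508-75399537, plus strand): cgagccacttCCTTTCCTTTCagcggagcg
CCT4 and DNAJC7 each have 2 annotated starts, of which 1 has the run.

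Of the 54 members 1 passed the test, and it was lower with decitabine. The translation efficiency of PFDN5, the prefoldin subunit also known as MM-1, a binding partner of MYC, fell by 0.57 ± 0.15 (implied SE). This is 0.566 times the efficiency with DMSO, at an adjusted p of 0.0276, all per the authors' deposited table. Of all genes analysed, 0.808% passed in either direction, 0.634% higher and 0.174% lower. A single call among 54 genes is 1.85% of them, a count too small to read against that background. Without adjustment, 8 of the members (14.8%) had a p below 0.05 in the authors' deposited table, 7 higher (13%) and 1 lower (1.85%), beside 10.3% of all genes, of which 8.35% were higher and 1.95% lower. The 7 were DNAJB11, PTGES3, CCT5, CCT3, DNAJC7, CCT7 and AHSA1. Once the median of all coefficients was subtracted, PFDN5 was again the single member called, and the calls were 0.586% of all genes, with 0.507% lower. Without adjustment, 5 members (9.26%) then had a p below 0.05, 2 higher (DNAJB11 and PTGES3) and 3 lower (PFDN5, FKBP2 and DNAJC10). Of all genes 7.94% did, 3.69% higher and 4.25% lower, from the authors' deposited table. The median is positive, so subtracting it lowers every coefficient. Fewer higher values, among members and all genes alike, follow from that step.

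Coefficients of the members had a median of 0.14 in the authors' deposited table, and those of all genes one of 0.09. Of the members 41 (75.9%) lay above 0, as did 65% of all genes, and 32 lay above the median of all genes. Positive coefficients were thus the rule in the whole table, and a small positive value for a member sits near the middle of it. Among the classes the medians ran from -0.01 for the nucleotide exchange factors over 0.08 for the isomerases, 0.13 for both CCT and prefoldin and 0.17 for the J-domain proteins to 0.29 for the HSP90 co-chaperones. With 3 to 21 genes in these classes, the medians describe them and were not tested against each other.

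**Figure D1:**
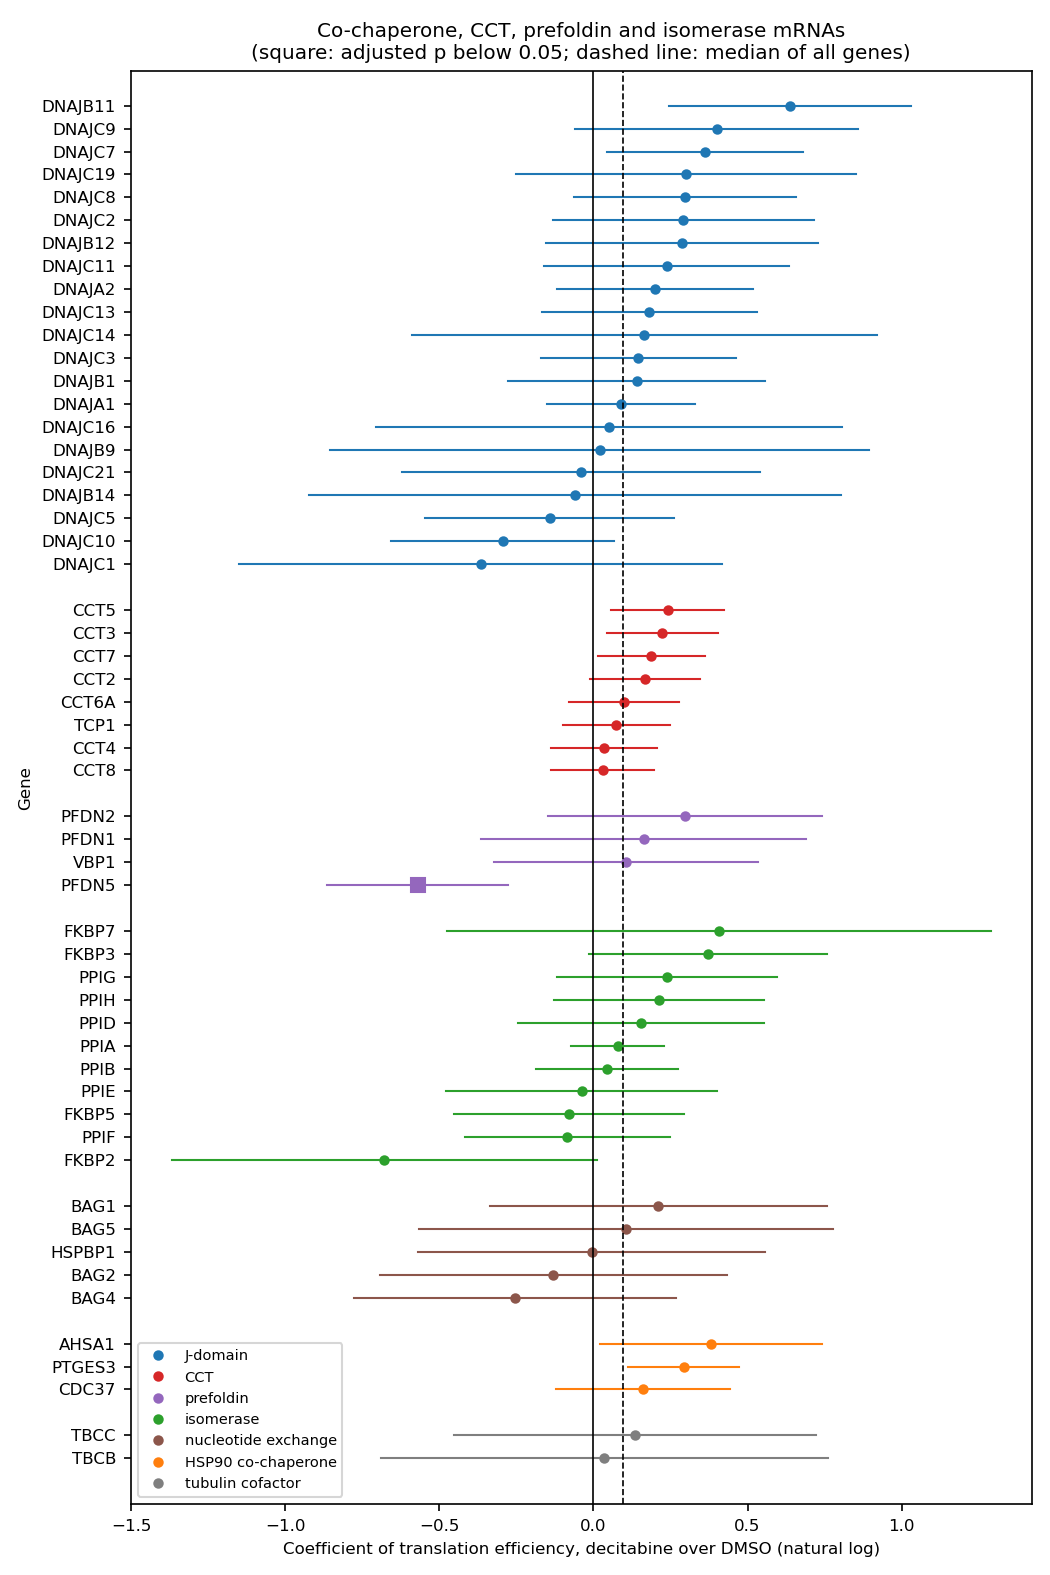
Coefficient of translation efficiency (x axis, natural log, decitabine over DMSO) of the 54 members, grouped by class, with 95% intervals from the implied standard errors as lines, from the authors' deposited table. The solid line is 0 and the dashed line the median of all 6309 genes, 0.09; the square is PFDN5, at -0.57, and the 8 CCT subunits have the narrowest intervals of any class.

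**Figure D2:**
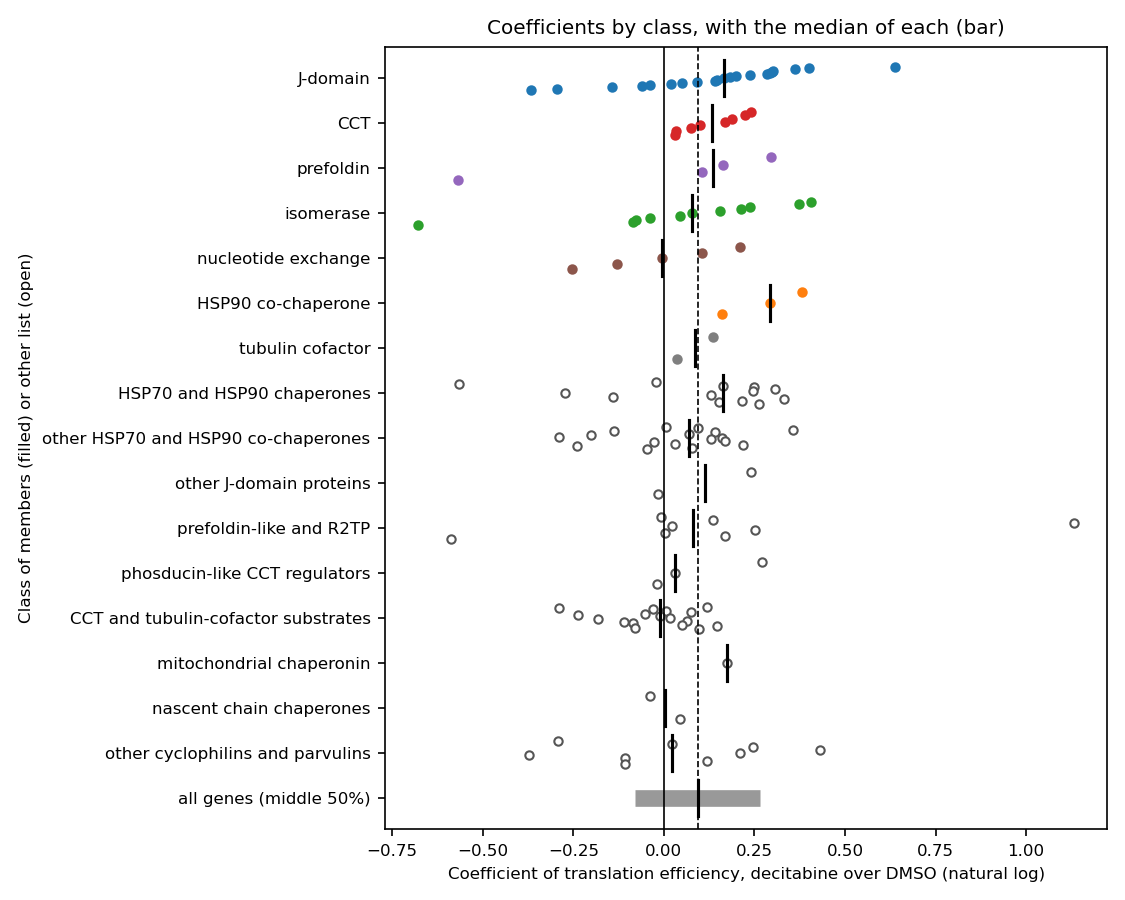
Coefficients from the authors' deposited table (x axis, natural log) of the members by class (filled points) and of related genes outside the rule by list (open points), with each median as a black bar and the middle 50% of all genes as a grey bar. The HSP90 co-chaperones have the highest class median, 0.29, and most classes straddle the dashed line at the median of all genes, 0.09.

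Prefoldin contained the single call. It is built from alpha-type subunits, PFDN5 and VBP1, and beta-type subunits, among them PFDN1 and PFDN2. The coefficients in the authors' deposited table were -0.57 for PFDN5, 0.11 ± 0.22 (implied SE) for VBP1, 0.16 ± 0.27 for PFDN1 and 0.30 ± 0.23 for PFDN2. PFDN5 therefore stood below the other measured subunits, whose 95% intervals all hold 0. The interval of PFDN5 was -0.86 to -0.28. From coefficients in the authors' deposited table, PFDN5 minus VBP1 was -0.68 (95% interval -1.19 to -0.16), PFDN5 minus PFDN1 was -0.73 (-1.34 to -0.13) and PFDN5 minus PFDN2 was -0.87 (-1.40 to -0.33). None of these intervals holds 0, and they treat the coefficients as independent. PFDN5 was set against its partners because it was the member called, so the intervals in part restate that choice. The gene spans 53295542 to 53299450 on chromosome 12 of hg38, has no named pseudogene and overlaps no other annotated gene in RefSeq. By p-value in the authors' deposited table it was number 31 of 6309.

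Prefoldin-like relatives did not show a common direction. UXT, URI1 and PDRG1 belong to a prefoldin-like complex that works with the R2TP co-chaperone. The list that joins this complex and R2TP had 8 measured genes of 10, none of which passed in the authors' deposited table. In the authors' deposited table PDRG1 had 1.13 ± 0.46 (implied SE, adjusted p = 0.302), WDR92 -0.59 ± 0.34 (adjusted p = 0.563) and PIH1D1, an R2TP subunit, 0.25 ± 0.21 (adjusted p = 0.74), and the list's median was 0.08.

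The 8 CCT subunits had like coefficients, each above 0, and none passed. In the authors' deposited table CCT5 had 0.24 ± 0.09 (implied SE, adjusted p = 0.245), CCT3 had 0.22 ± 0.09 (adjusted p = 0.302), CCT7 had 0.19 ± 0.09 (adjusted p = 0.421) and CCT2 had 0.17 ± 0.09 (adjusted p = 0.53). The remaining subunits in the authors' deposited table were CCT6A with 0.10 ± 0.09 (adjusted p = 0.768), TCP1, the founding subunit of the ring, with 0.07 ± 0.09 (adjusted p = 0.832), CCT4 with 0.03 ± 0.09 (adjusted p = 0.941) and CCT8 with 0.03 ± 0.09 (adjusted p = 0.946). Each CCT ring holds 1 copy of every subunit. The coefficient of each subunit was set against the precision-weighted mean of the other subunits, and all 8 intervals hold 0, the most distant being CCT5 with a difference of 0.13 (95% interval -0.07 to 0.32) and CCT8 with -0.11 (-0.30 to 0.07), from the authors' deposited table. No subunit was thus set apart from its ring at this precision, and the intervals leave room for differences of up to about 0.3 in either direction. The implied standard errors of the 8 lay between 0.0856 and 0.0935, below the 5th percentile of all genes, 0.107. Of these subunits 5 lay above the median of all genes and 3, TCP1, CCT4 and CCT8, below it.

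**Figure D3:**
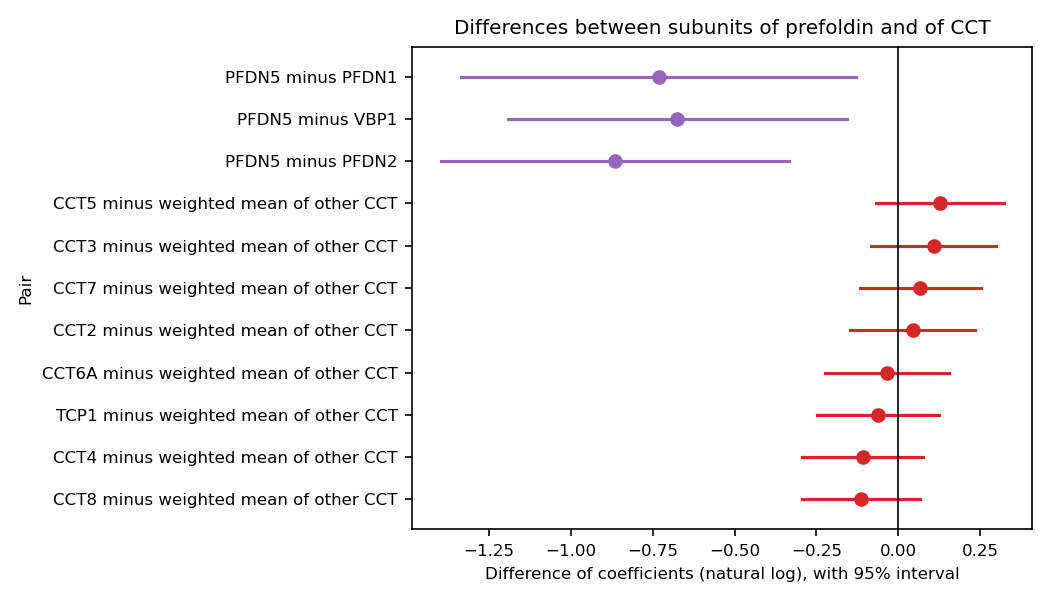
Differences between coefficients of subunits (x axis, natural log) with 95% intervals as lines: PFDN5 minus each other measured prefoldin subunit, and each CCT subunit minus the precision-weighted mean of the other CCT subunits, from the authors' deposited table. The PFDN5 differences lie between -0.87 and -0.68 with intervals below 0, while the intervals of all 8 CCT differences cross 0.

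The proteins that prefoldin and CCT fold had calls in both directions. Of 17 measured substrates of 24 listed, mostly actins, tubulins and WD-repeat proteins, the median was -0.01 and 3 lay above the median of all genes in the authors' deposited table. By the authors' deposited table ACTG1, cytoplasmic gamma-actin, fell with -0.29 ± 0.04 (implied SE, adjusted p = 2.45e-09), and ACTB, beta-actin, rose with 0.12 ± 0.03 (adjusted p = 0.0202), though ACTB did not pass once the median of all genes was subtracted (adjusted p = 0.918). For TUBB4B, a beta-tubulin, the authors' deposited table gives -0.18 ± 0.10 (adjusted p = 0.501). The actins have near-identical coding sequences, and the way shared reads were counted is not stated in those sources. The phosducin-like regulators of CCT had no call among 3, with 0.27 ± 0.31 (implied SE) for PDCL, 0.03 ± 0.35 for PDCL3 and -0.02 ± 0.25 for TXNDC9 in the authors' deposited table. The tubulin cofactors had, by the authors' deposited table, coefficients of 0.13 ± 0.30 (TBCC, adjusted p = 0.928) and 0.03 ± 0.37 (TBCB, adjusted p = 0.987).

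The J-domain proteins ranged from -0.37 to 0.64 with no call in the authors' deposited table, and 16 of 21 lay above 0. The members of the cytosol, nucleus and vesicles had a median of 0.19 over 10 genes, those of the endoplasmic reticulum (ER) 0.05 over 9 and those of mitochondria 0.27 over 2, in the authors' deposited table.

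Among the 10 of the cytosol, nucleus and vesicles in the authors' deposited table, DNAJC9, a histone chaperone, had 0.40 ± 0.23 (implied SE, adjusted p = 0.569) and DNAJC7, a TPR protein that binds both HSP70 and HSP90, had 0.36 ± 0.16 (adjusted p = 0.393). DNAJC8, found with the spliceosome, had 0.30 ± 0.18 (adjusted p = 0.596) by the authors' deposited table, and DNAJC2, the ribosome-associated partner of HSPA14, had 0.29 ± 0.22 (adjusted p = 0.689). The general HSP70 partners were closer to 0: DNAJA2 had 0.20 ± 0.16, DNAJB1, the stress-inducible HSP40, 0.14 ± 0.21 and DNAJA1 0.09 ± 0.12 in the authors' deposited table. DNAJC13, an endosomal protein, had 0.18 ± 0.18 by the authors' deposited table. The members below 0 were DNAJC5, the cysteine string protein of secretory vesicles, with -0.14 ± 0.21 and DNAJC21, a ribosome biogenesis factor, with -0.04 ± 0.30 in the authors' deposited table.

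The 9 ER members had both the highest and the lowest coefficient of the J-domain proteins. DNAJB11, which delivers clients to the ER HSP70 BiP, had the highest coefficient of any member, 0.64 ± 0.20 (implied SE), or 1.89-fold, with p = 0.00146 before and 0.103 after adjustment, per the authors' deposited table. DNAJC10, an ER disulphide reductase, had -0.29 ± 0.19 (adjusted p = 0.6) by the authors' deposited table and DNAJC1 had -0.37 ± 0.40 (adjusted p = 0.806). DNAJB11 minus DNAJC10, a pair chosen after the values were seen, was 0.93 (95% interval 0.40 to 1.47) from the authors' deposited table, whereas DNAJB11 minus DNAJC3 was 0.49 (-0.01 to 1.00). DNAJB12 had 0.29 ± 0.23 and DNAJC3, an inhibitor of the kinase PERK, 0.15 ± 0.16 in the authors' deposited table. DNAJC14, DNAJC16, DNAJB9 and DNAJB14 lay between -0.06 and 0.17 in the authors' deposited table with implied standard errors of at least 0.38, so their intervals are wide on both sides of 0. By the authors' deposited table the mitochondrial members were DNAJC19, of the protein import motor, with 0.30 ± 0.28 (adjusted p = 0.77), and DNAJC11 with 0.24 ± 0.20 (adjusted p = 0.749). J-domain proteins without a DNAJ name had no call among 2 in the authors' deposited table: SEC63 of the ER translocon had 0.24 ± 0.13 (adjusted p = 0.499) and GAK, a clathrin uncoating factor, -0.02 ± 0.18.

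The 3 HSP90 co-chaperones had the highest class median but no call. PTGES3, the p23 protein that stabilises client-bound HSP90, had 0.29 ± 0.09 (implied SE), or 1.34-fold, with p = 0.00144 before and 0.103 after adjustment, per the authors' deposited table. AHSA1, the activator of the HSP90 ATPase, had 0.38 ± 0.18 (adjusted p = 0.439) by the authors' deposited table and CDC37, which brings kinases to HSP90, 0.16 ± 0.14 (adjusted p = 0.765). PTGES3 minus CDC37 was 0.13 (95% interval -0.20 to 0.47), a pair chosen after the values were seen, so these members were not told apart.

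The chaperones that these helpers serve included 3 calls. Of 13 measured HSP70 and HSP90 proteins of 20 listed, 3 were called higher and none lower in the authors' deposited table. The median was 0.16, and 4 of the 13 lay below 0, the lowest at -0.57. HSP90AA1 rose with 0.33 ± 0.05 (implied SE, adjusted p = 2.45e-09) by the authors' deposited table, HSPA8 with 0.25 ± 0.04 (adjusted p = 1.89e-06) and HSP90AB1 with 0.21 ± 0.05 (adjusted p = 0.00262), though HSP90AB1 did not pass once the median of all genes was subtracted (adjusted p = 0.428). PTGES3 and AHSA1 had coefficients of about the same size with larger errors, and the difference between helpers and chaperones was not tested. Of 17 other co-chaperones measured, of 21 listed, none passed in the authors' deposited table; FKBP4 had 0.36 ± 0.12 (adjusted p = 0.122), CACYBP 0.22 ± 0.13 and NUDC 0.16 ± 0.15, and the list's median was 0.07. For HSPD1, the mitochondrial chaperonin, the authors' deposited table gives 0.17 ± 0.06 (adjusted p = 0.169). BTF3 and BTF3L4, of the complex that meets nascent chains at the ribosome, had -0.04 ± 0.12 and 0.04 ± 0.26 in the authors' deposited table.

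**Figure D4:**
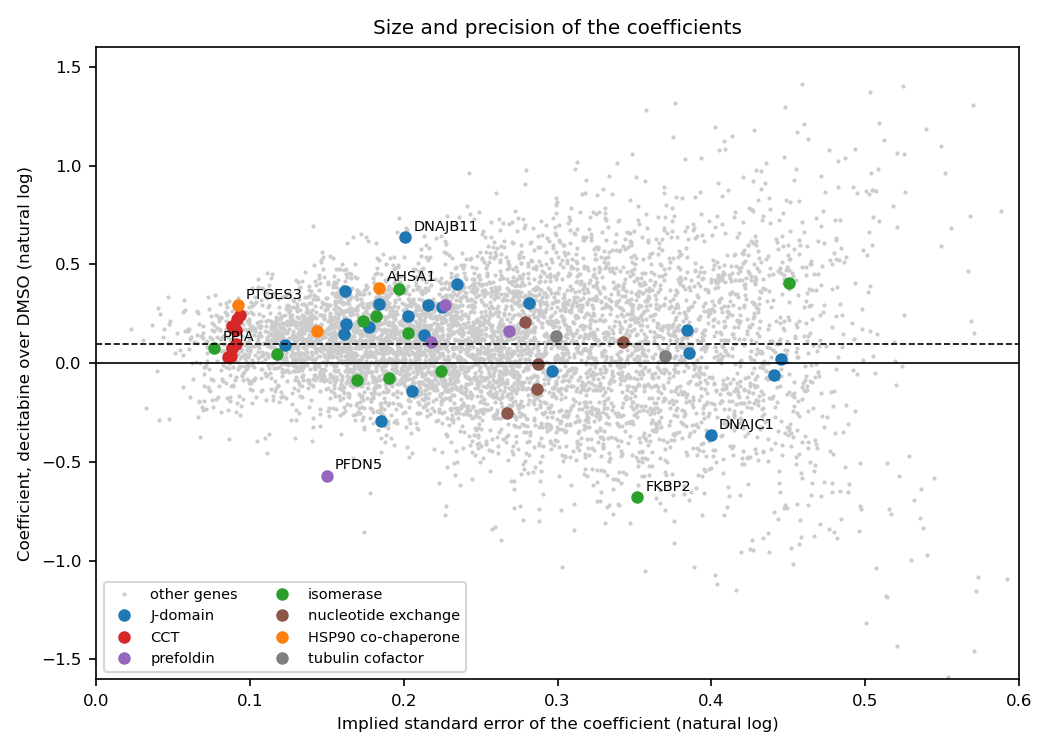
Coefficient (y axis, natural log) against its implied standard error (x axis, natural log) for all genes in grey, with 19 genes beyond the axes not drawn, and for the members in colour by class, from the authors' deposited table. PFDN5, at -0.57 with an error of 0.15, lies at the lower edge of the grey cloud at its precision, FKBP2, at -0.68 with an error of 0.35, lies within it, and the CCT subunits form a tight group at the precise end.

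The 5 nucleotide exchange factors of HSP70 lay around 0 and none passed. BAG1, which also binds BCL2, had 0.21 ± 0.28 (implied SE), BAG5 0.11 ± 0.34, HSPBP1 -0.01 ± 0.29, BAG2 -0.13 ± 0.29 and BAG4 -0.25 ± 0.27 by the authors' deposited table, where the smallest of their adjusted p-values was 0.798. Each of these intervals holds 0.

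The 11 isomerases had a median of 0.08 and no call in the authors' deposited table, and none had an unadjusted p below 0.05. By the authors' deposited table the lowest coefficient of all members was that of FKBP2, an isomerase of the ER lumen, with -0.68 ± 0.35 (implied SE, adjusted p = 0.489), and the highest isomerase was FKBP7, also of the ER, with 0.41 ± 0.45 (adjusted p = 0.809). FKBP2 thus had a lower coefficient than PFDN5 with a larger error, and its interval, -1.37 to 0.01, holds 0. FKBP3, a nuclear isomerase, had 0.37 ± 0.20 (adjusted p = 0.504) by the authors' deposited table and FKBP5, a glucocorticoid-induced HSP90 partner, -0.08 ± 0.19 (adjusted p = 0.935). The difference of FKBP3 minus FKBP2 was 1.05 (95% interval 0.26 to 1.84), a pair chosen after the values were seen.

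The 7 cyclophilins lay in a narrow range, from -0.09 to 0.24 in the authors' deposited table. PPIG and PPIH, both found in the nucleus with the splicing machinery, had 0.24 ± 0.18 (implied SE) and 0.21 ± 0.17, and PPID, an HSP90 partner, had 0.15 ± 0.20 in the authors' deposited table. By the authors' deposited table PPIA, the cytosolic cyclophilin A that binds ciclosporin, was the most precise member with 0.08 ± 0.08 (adjusted p = 0.781), and PPIB of the ER had 0.04 ± 0.12. PPIE, with -0.04 ± 0.22, and PPIF, the cyclophilin of the mitochondrial permeability pore, with -0.09 ± 0.17, were the cyclophilins below 0 in the authors' deposited table. RefSeq names 87 pseudogenes after PPIA, against 9 after DNAJC19, 6 after DNAJA1 and 5 after PTGES3, and how reads shared with such copies were counted is not stated in those sources, nor was it measured here. Other cyclophilins and parvulins had no call among 9 in the authors' deposited table; PPWD1 had 0.43 ± 0.35, PPIL4 0.24 ± 0.21 and NKTR 0.21 ± 0.18. The list's median was 0.02, its coefficients ran from -0.37 to 0.43, and 4 of the 9 lay below 0 in the authors' deposited table.

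The pyrimidine run at the start was then set beside the coefficients. A C as the first transcribed base, followed by at least 4 bases that are each C or T, was first looked for on the transcript's strand at that position. It stood at 4.07% of 35116 annotated starts, in 401 of 5145 genes of the table with an annotated start (7.79%) and in 4 of 48 such members (8.33%). BAG4, CCT6A, DNAJC1, PFDN2, PPIE and PPIG had no entry. A wider search let the C lie within 5 bases of the annotated start on either side. By it, 45.8% of the 48 members had the run, beside 29.2% of the 5145 genes. Members with the run only by the wider search included PFDN1, VBP1, CCT2, CCT5, CCT8 and TCP1. This difference in share was not tested, and the values that follow are for the run at the first base. By the authors' deposited table, the 401 genes with the run had a median of 0.03 and the 4744 without it one of 0.10. Of the genes with the run 1.25% (5 genes) were called lower, and of those without it 0.126% (6 genes). Called higher were 2 genes with the run and 29 without it. The 5 lower calls with the run were PFDN5, RPL10, EEF2, RPS3 and EEF1A1. All of these but PFDN5 have implied standard errors from 0.032 to 0.086, below the 5th percentile of all genes, 0.107. Precise genes are called more easily, and the difference in calls was not tested. The 401 include 34 ribosomal protein genes, with a median of -0.15, and the other 367 had a median of 0.05 in the authors' deposited table.

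PFDN5, whose run is 6 bases long, was the one member of the 4 that was called lower. CCT4, with a run of 7 bases at 1 of its starts, had 0.03, DNAJC16, with 15 bases, 0.05 ± 0.39 (implied SE), and DNAJC7, with 11 bases at 1 of its starts, 0.36 in the authors' deposited table. The run was thus present in members with coefficients on both sides of the median of all genes. The other 6 lower calls, DNTTIP2, ETFB, RNASE2, VIM, RPL15 and ACTG1, have no such run at their annotated starts. Of these, VIM and RPL15 are known TOP mRNAs. Annotated starts may differ from those used in HL-60 cells. The sequence match is a description of the annotated start, and its part in the coefficient of PFDN5 was not tested.

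**Figure D5:**
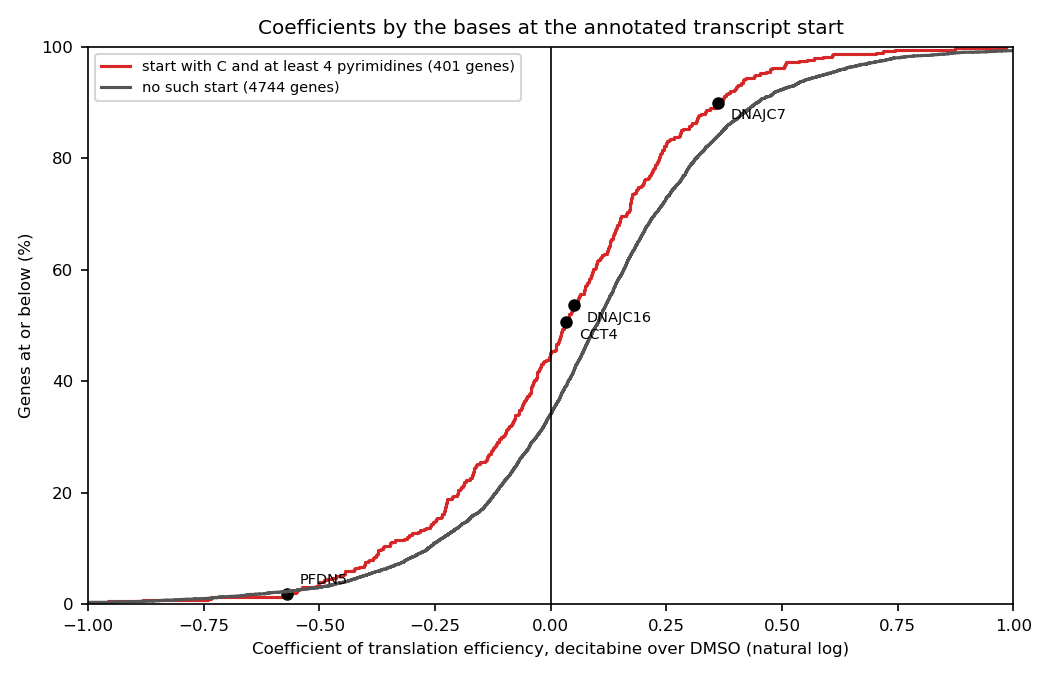
Percentage of genes (y axis) at or below each coefficient (x axis, natural log, from the authors' deposited table) for genes with a C and at least 4 pyrimidines at an annotated start (red, 401 genes) and without (grey, 4744 genes), with 47 genes beyond the axis. The red curve lies left of the grey one over most of the range, and the 4 members with the run (black points) are spread along it from PFDN5 at -0.57 to DNAJC7 at 0.36.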

How the data were processed

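Translation efficiency was measured by ribosome profiling with matched total RNA in HL-60 cells. The submitters' processing notes name hg38 and the tools Bowtie2, UMI-tools 1.1.1 and SAMtools 1.11, and their settings, the model, its count filter and the library scaling are not given in those sources. The authors deposited 1 table of 6309 genes with a log coefficient for the drug, taken here as a natural log, and, per the file headers, its p-value, adjusted p-value and q-value. No library counts were analysed here, so a count test could not be run and the depth is unknown. The deposited adjusted p equals the Benjamini-Hochberg adjustment over all genes, to within 6.61e-14. Computed here, with Python 3.11.15 and SciPy 1.17.1, were implied standard errors (coefficient divided by its z), 95% intervals, medians, and differences between members. A gene was called where the deposited adjusted p was below 0.05. The wells were seeded in duplicate and nothing says that they came from separate cultures. The p-values therefore reflect at most the spread of these samples, which may be technical. Since the model is not given, they may not hold even that spread.

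The members and lists were chosen with earlier results of these data known. Named were every call, every CCT and prefoldin gene, the 6 smallest p-values of each other class, the extremes, and up to 3 genes of each of 9 related lists; members beyond these were named after their values were seen, and 1 related gene is not reported here. Alternatives were centring on the median or the precision-weighted mean, other adjustments and thresholds, and removal of imprecise genes. The centring step was tried on simulated data whose errors were drawn from the implied standard errors. There 15.7% of changes of 0.5 and 67.8% of changes of 1 were called, and 6.13% and 5.84% of the calls were false. The simulation therefore says nothing about error that the implied standard errors leave out. An absent call does not by itself exclude a change of 0.5, and the intervals of imprecise members hold it. The intervals of some precise members do not reach 0.5 in either direction. Those of the CCT subunits lay between -0.138 (CCT4) and 0.425 (CCT5), and that of PPIA ended at 0.229. These limits hold only as far as the implied standard errors count all error.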

Additional observations from a re-analysis of the deposited data

How the results depend on the processing

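From the authors' deposited table, PFDN5 passed with coefficients centred on their median (-0.66, adjusted p = 0.00378) or precision-weighted mean (-0.66, adjusted p = 0.00447), with the authors' q-value, at an adjusted p below 0.1 and after removal of the least precise 25% of genes. It remained the single member called in these settings. With the Benjamini-Yekutieli adjustment of the authors' deposited p-values (adjusted p = 0.258) or at an adjusted p below 0.01 the members called, and those called lower, numbered 0, which follows from the stricter thresholds; 8 members had an unadjusted p below 0.05 as deposited, 7 higher and 1 lower, and 5 did with coefficients centred on the median, 2 higher and 3 lower, with CCT3, CCT5, CCT7, DNAJC7 and AHSA1 no longer among them. Centring, which subtracts 0.09 from every coefficient, turned small positive values negative. Centred on the median and on the weighted mean, these were -0.061 and -0.056 for CCT4, -0.065 and -0.060 for CCT8, -0.021 and -0.015 for TCP1, -0.016 and -0.011 for PPIA, -0.060 and -0.055 for TBCB, -0.063 and -0.058 for PDCL3, -0.051 and -0.046 for BTF3L4, -0.075 and -0.069 for DNAJB9, -0.045 and -0.040 for DNAJC16, and -0.050 and -0.045 for PPIB. DNAJA1 was -0.0042 when centred on the median and stayed above 0 with the weighted mean. With coefficients centred on the median, the CCT median was 0.038, and the medians of the isomerases (-0.016), the tubulin cofactors (-0.010), the ER J-domain proteins (-0.045), the prefoldin-like list (-0.016), the other co-chaperones (-0.026), the phosducin-like regulators (-0.063) and the other cyclophilins and parvulins (-0.072) lay below 0. The precision-weighted mean of prefoldin was -0.15, against a median of 0.13, since PFDN5 is its most precise subunit. With the authors' deposited coefficients centred on their median, HSP90AB1 (adjusted p = 0.428) and ACTB (adjusted p = 0.918) no longer passed. No paired analysis was possible because the deposited table holds no values per library, and for the same reason no replicate could be left out. In the most precise 20% of genes the SD of centred z was 1.46, where 1 would be the value for unchanged genes with fully counted error, so p-values of precise members can be too small, among them that of PFDN5, whose implied standard error is smaller than the 20th percentile of 0.167, and those of CCT.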
